A study of Mus musculus with 6 samples.

Results

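Growth hormone acts on the hepatocyte, the main metabolic cell of the liver, through a short chain of proteins. Described here are 10 genes of that chain, of its feedback or downstream of it, in hepatocytes labelled senescent and healthy. The genes are Ghr, Jak2, Stat5a, Stat5b, Socs2, Cish, Igf1, Igfals, Bcl6 and Cux2. They are 10 of 32061 genes in the count table. The genes were taken by symbol, and the set was chosen on values of this same senescent against healthy contrast, so the values of the 10 genes are given as a description, with no test. RNA came from hepatocytes isolated by collagenase perfusion of the liver, in 3 senescent and 3 healthy samples of mice 10 to 12 weeks old. The senescent mice carried the AhCre transgene and a floxed Mdm2 allele on both chromosomes (AhCre+Mdm2fl/fl), and the healthy mice lacked the transgene (AhCre-). All 6 samples, controls included, came from mice given β-naphthoflavone at 20 mg/kg for 48 h. That compound activates the aryl hydrocarbon receptor, which drives the promoter of AhCre. No source used here gives the Mdm2 genotype of the healthy mice, and presence of Cre and loss of Mdm2 cannot be told apart. Nothing says that the samples are separate animals, and p-values then measure only the spread between these samples.

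Growth hormone binds its receptor, GHR, and the kinase JAK2 bound to that receptor phosphorylates the transcription factors STAT5A and STAT5B. In liver STAT5B is the main form, and its targets include Socs2 and Cish, whose products damp the receptor's signal, and Igf1 and Igfals, whose products circulate together in blood. The pattern of growth hormone pulses differs between the sexes in mice and rats, and BCL6 and CUX2 are repressors that help to set the sex bias of liver genes downstream of it.

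Library totals were 28799392 to 33267299 counts, and a library with 0 counts of a gene allows up to 3 counts, or 0.0837 to 0.117 CPM (counts per 1e6 of the library size after scaling by TMM factors). Mdm2, the gene of the ubiquitin ligase that holds p53 low, had 465, 463 and 501 CPM in the senescent and 19.0, 22.7 and 22.0 CPM in the healthy libraries. That count spans the whole gene and does not check the deletion of a part of it. Markers of hepatocytes, the labelled cell type, were abundant in all 6 libraries, and albumin held 7.26% to 8.87% of all counts in the healthy group and 5.51% to 5.96% in the senescent group. Hepatocyte markers summed to 84439 to 96809 CPM in the senescent and 137636 to 164400.0 CPM in the healthy libraries, with albumin the largest part of each sum. At the threshold given below 6 of 9 fell, beside 20.7% of all tested genes. The 3 that did not pass were Apob, Cps1 and Hnf4a, with log2 fold changes (senescent minus healthy) of 0.27, 0.14 and 0.018. The 10 genes together took 0.0990% to 0.131% of counts. In a bulk sample, fewer cells of a type and less RNA per cell cannot be told apart.

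All 10 genes had enough counts to be fitted. Of them, 4 were past the threshold of the fit across all genes (edgeR quasi-likelihood, Benjamini-Hochberg adjusted p under 0.05), all of them lower in senescent hepatocytes: Ghr, Socs2, Igfals and Cux2. None was past it in the other direction. Among all 12949 genes tested, 41.1% were past it, 20.4% higher and 20.7% lower. In 6 of the 10 genes the CPM ranges of both groups did not overlap, and in each of the 6 the senescent libraries were the lower ones; among all genes tested 54.0% did not overlap. These shares stand beside the counts only as background, since the contrast served to choose the genes. The median log2 fold change (senescent minus healthy) of the 10 genes was -0.35, beside 0.014 over all tested genes. Scaled by total library size instead of TMM factors, these medians were -0.033 and 0.33.

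**Figure D1:**
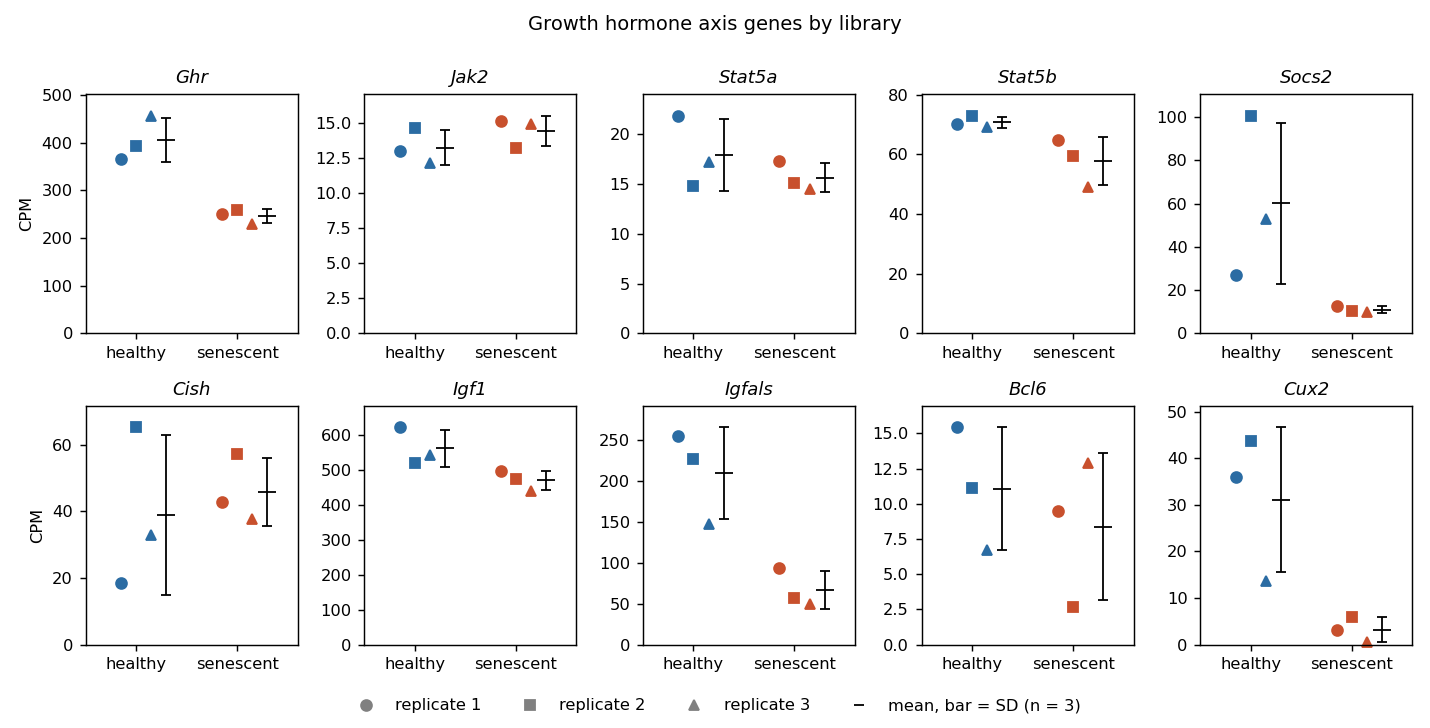
CPM of the 10 genes in each library on linear axes from 0, with healthy libraries in blue, senescent libraries in orange, a symbol per replicate number, and mean and SD (n = 3) beside them. Ghr, Stat5b, Socs2, Igf1, Igfals and Cux2 have no overlap between groups, while Jak2, Stat5a, Cish and Bcl6 do.

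Ghr (ENSMUSG00000055737; GRCm38 chromosome 15, 3317760 to 3583492, minus strand), the receptor itself, had 366, 393 and 456 CPM in healthy replicates 1, 2 and 3 and 250.1, 259 and 229.8 CPM in senescent replicates 1, 2 and 3. Every senescent library lay below every healthy one. The means were 405 ± 46.1 and 246 ± 15.01 CPM (SD, n = 3), a healthy level 1.64 times the senescent one, and the log2 fold change was -0.72 ± 0.13 (SE). It was -0.41 with total library size and stayed below 0 in each of 15 alternative settings.

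Jak2 (ENSMUSG00000024789; chromosome 19, 29251828 to 29313080, plus strand), the kinase that starts the signal, had 13.0, 14.6 and 12.1 CPM in the healthy and 15.1, 13.2 and 14.9 CPM in the senescent libraries. The groups overlapped, and the log2 fold change was 0.12 ± 0.13 (SE). Scaled by total library size, it was 0.44 and past the threshold. So the receptor was lower while its kinase differed by about its own error under TMM scaling.

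Stat5b (ENSMUSG00000020919; chromosome 11, 100780731 to 100850724, minus strand) had 70.3, 72.9 and 69.3 CPM in the healthy and 64.8, 59.5 and 49.0 CPM in the senescent libraries. The healthy values lay close together and all senescent values were below them, with a log2 fold change of -0.29 ± 0.13 (SE) that was not past the threshold. Stat5a (ENSMUSG00000004043; chromosome 11, 100859351 to 100885169, plus strand), its close paralog and neighbour, had 21.8, 14.7 and 17.2 CPM in the healthy and 17.3, 15.1 and 14.5 CPM in the senescent libraries. Those ranges overlapped, and the log2 fold change was -0.20 ± 0.16 (SE). On total library size both signs turned, to 0.014 for Stat5b and 0.11 for Stat5a. Per kilobase of exon, the Stat5b level was 4.15, 6.36 and 5.19 times the Stat5a level in the healthy libraries and 4.82, 5.07 and 4.35 times in the senescent ones, with overlapping ranges. Reads that match both paralogs could be split between them, and Stat5a shares 72 exonic bases with Stat3 on the other strand, so the level of Stat5a is uncertain.

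The feedback inhibitors Socs2 and Cish parted. Socs2 (ENSMUSG00000020027; chromosome 10, 95385362 to 95417180, minus strand), whose protein recruits a ubiquitin ligase to the growth hormone receptor, had 26.9, 100.5 and 53.1 CPM in the healthy and 12.6, 10.3 and 9.93 CPM in the senescent libraries. Healthy replicate 2 was the highest and healthy replicate 1 the lowest of its group, and even the lowest was above every senescent library. The means were 60.1 ± 37.3 and 10.96 ± 1.46 CPM (SD, n = 3), a healthy level 5.49 times the senescent one. The log2 fold change was -2.45 ± 0.42 (SE), and it ranged from -2.81 to -1.87 over the 15 alternatives, with the smallest size without healthy replicate 2.

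Cish (ENSMUSG00000032578; chromosome 9, 107296026 to 107302784, plus strand), which encodes another STAT5-induced inhibitor of cytokine receptors, had 18.5, 65.3 and 32.9 CPM in the healthy and 42.7, 57.3 and 37.6 CPM in the senescent libraries. The senescent values all lay inside the healthy range. The log2 fold change was 0.24 ± 0.39 (SE), and its sign turned without healthy replicate 1, to -0.10, while it was 0.83 without healthy replicate 2. In the annotation Cish shares 479 exonic bases with the antisense gene Gm17041 and 261 with the pseudogene Gm17040.

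Within the healthy group Socs2 and Cish moved together from library to library. Per kilobase of exon, the Socs2 level was 0.981, 1.04 and 1.09 times the Cish level in healthy replicates 1, 2 and 3, although each gene alone varied 3.74-fold and 3.54-fold between those libraries. In the senescent libraries the same ratio was 0.199, 0.121 and 0.178. All 3 senescent ratios were below all 3 healthy ones. The ratio was looked at after the values of both genes had been seen, so it too is a description. The size of the ratio depends on the exonic lengths, which join the exons of all annotated transcripts. For Cish that length is 6419 bases, nearly the whole gene, so its level per kilobase may be understated. The comparison of the groups does not depend on these lengths.

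**Figure D2:**
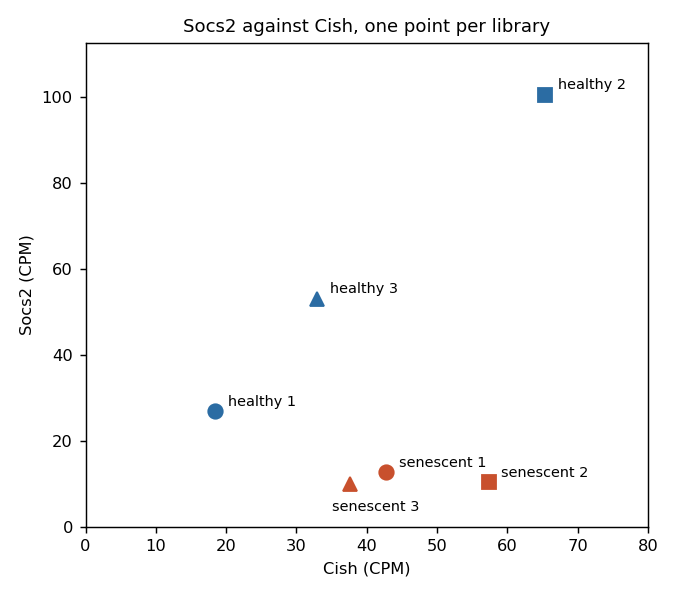
Socs2 CPM (vertical) against Cish CPM (horizontal), both linear, with a point for each library. The healthy libraries climb together from 18.5 to 65.3 CPM of Cish and from 26.9 to 100.5 CPM of Socs2, while the senescent libraries spread over 37.6 to 57.3 CPM of Cish at 9.93 to 12.6 CPM of Socs2.

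STAT5 binds DNA at the letters TTCNNNGAA, a palindrome that reads the same on both strands. Windows from 250 bases before to 50 after each RefSeq start site (GRCm38.p6) were at hand for 9 of the 10 genes (16 windows). Socs2 had no window, so its promoter was not searched. The letters were held by 5 windows of 3 genes, Cish, Igfals and Bcl6. The matches of Cish began at positions 1 and 12 counted from the start site, not before it. Among all 32851 windows 8.30% held them, and 9.55% of 27025 genes had such a window. The share of genes was not matched for the number of windows per gene. The form with 4 bases between TTC and GAA, also searched on both strands, was in 0 of the 16 windows and in 6.95% of all windows. Igfals has 3 windows, and the most downstream of them held no match. Other STAT factors accept the same letters, a match is not a measured site, and no binding was measured here. The stretches are shown for every window that held a match. In the data Cish did not separate the groups, Igfals did, and Bcl6 varied within them. A link between the letters and these values was not tested. Each is the strand of the gene, 5′ to 3′, with the matched letters in capitals.
Cish, chr9:107296649-107296678, plus strand, exonic: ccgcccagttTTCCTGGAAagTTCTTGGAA
Igfals, first start, chr17:24877598-24877626, plus strand, intronic: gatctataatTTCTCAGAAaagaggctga
Igfals, middle start, chr17:24878163-24878191, plus strand, intronic: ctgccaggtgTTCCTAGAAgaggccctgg
Bcl6, inner start, chr16:23981353-23981461, minus strand, intronic: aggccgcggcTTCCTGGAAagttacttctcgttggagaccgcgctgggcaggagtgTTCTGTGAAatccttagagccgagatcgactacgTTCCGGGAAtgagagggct
Bcl6, outer start, chr16:23988952-23988980, minus strand, outside the annotated gene: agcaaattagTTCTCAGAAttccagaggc

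Igf1 (ENSMUSG00000020053; chromosome 10, 87858265 to 87937042, plus strand) encodes the growth factor that the liver secretes in answer to growth hormone. Its level was 623, 522 and 543 CPM in the healthy and 496, 474 and 441 CPM in the senescent libraries. The senescent libraries were all lower, by a small margin between senescent replicate 1 and healthy replicate 2. The means were 562 ± 53.4 and 470.3 ± 27.8 CPM (SD, n = 3), with a log2 fold change of -0.26 ± 0.13 (SE) that was not past the threshold and was 0.052 with total library size. Macrophages also make Igf1, and the summed level of 12 macrophage markers, none of them at 0, was 357, 229 and 459 CPM in the senescent and 211, 250.1 and 92.9 CPM in the healthy libraries; their part in the Igf1 level was not tested.

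Igfals (ENSMUSG00000046070; chromosome 17, 24865997 to 24882010, plus strand) encodes the acid-labile subunit, which hepatocytes add to IGF1 and a binding protein to form the long-lived complex in blood. It had 254, 227 and 147 CPM in the healthy and 93.3, 57.1 and 49.4 CPM in the senescent libraries, with no overlap. The means were 209 ± 55.9 and 66.6 ± 23.4 CPM (SD, n = 3), a healthy level 3.14 times the senescent one. The log2 fold change was -1.65 ± 0.28 (SE), from -1.94 to -1.338 over the 15 alternatives. Per kilobase of exon, the Igfals level was 1.28, 1.36 and 0.846 times the Igf1 level in the healthy libraries and 0.588, 0.376 and 0.351 times in the senescent ones. The subunit was thus the more changed of the secreted pair in every senescent library, on this ratio chosen after the values were seen.

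The transcriptional repressors varied widely between libraries of a group. Cux2 (ENSMUSG00000042589; chromosome 5, 121856366 to 122050102, minus strand), a repressor known as more abundant in female than in male liver, had 35.9, 43.7 and 13.6 CPM in the healthy and 3.10, 5.86 and 0.463 CPM in the senescent libraries. Even the highest senescent library was below the lowest healthy one. The means were 31.1 ± 15.6 and 3.14 ± 2.698 CPM (SD, n = 3), and the healthy level was 9.91 times the senescent one. The log2 fold change was -3.31 ± 0.71 (SE), from -4.07 to -2.76 over the alternatives. Senescent replicate 3, the lowest, rests on 16 counts of Cux2, against 386 in the lowest healthy library.

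Bcl6 (ENSMUSG00000022508; chromosome 16, 23965052 to 23988852, minus strand), a repressor that competes with STAT5 for shared sites in liver, had 15.4, 11.1 and 6.72 CPM in the healthy and 9.49, 2.65 and 12.9 CPM in the senescent libraries. The groups overlapped, senescent replicate 2 was the lowest of all 6 libraries, and the log2 fold change was -0.41 ± 0.50 (SE). Without senescent replicate 2 it was 0.057. Bcl6 shares 21 exonic bases with Gm37419.

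**Figure D3:**
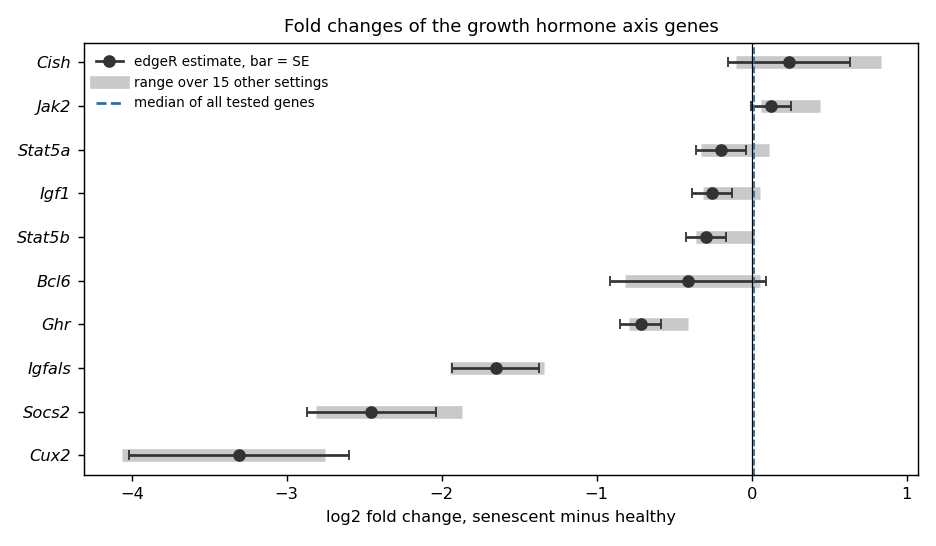
Log2 fold changes of the 10 genes, senescent minus healthy, as points with SE bars, grey bands for the range over 15 alternative settings, and a dashed line for the median of all tested genes (0.014). The bands of Cux2, Socs2, Igfals and Ghr lie wholly below 0, that of Jak2 wholly above it, and those of the other 5 genes reach both sides.

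Levels were ordered per kilobase of exon, since longer transcripts take more reads. That length joins all annotated exons of a gene and can exceed the length of its transcripts. The order of genes within a group is uncertain to that extent, above all for Cish. In healthy cells the order was Igfals (66.1 ± 17.6 CPM per kb, SD, n = 3), Igf1 (56.8 ± 5.39), Ghr (44.7 ± 5.09), Stat5b (12.8 ± 0.332), Socs2 (6.31 ± 3.91), Cish (6.06 ± 3.74), Cux2 (3.08 ± 1.55), Jak2 (2.63 ± 0.252), Stat5a (2.51 ± 0.504) and Bcl6 (1.65 ± 0.650). The libraries of Igfals overlapped those of Igf1 and of Ghr. Those of each pair of neighbours from Socs2 down to Bcl6 overlapped too. In senescent cells Igf1 came first with 47.5 ± 2.81 CPM per kb, then Ghr with 27.2 ± 1.66 and Igfals with 21.0 ± 7.40, of which Ghr and Igfals overlapped. Stat5b at 10.4 ± 1.45 and Cish at 7.15 ± 1.59 CPM per kb followed and overlapped. Then came Jak2 with 2.86 ± 0.212, Stat5a with 2.19 ± 0.209, Bcl6 with 1.25 ± 0.779, Socs2 with 1.15 ± 0.154 and Cux2 with 0.311 ± 0.268 CPM per kb. Of these, Bcl6 overlapped both Socs2 and Cux2. Socs2 stood next to Cish in the healthy order and far below it in the senescent one.

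The genes also differed in how far libraries of a group lay apart. The highest healthy library exceeded the lowest 3.74-fold for Socs2, 3.54-fold for Cish, 3.21-fold for Cux2 and 2.30-fold for Bcl6, against 1.05-fold for Stat5b and a median of 1.35-fold over all tested genes. In the senescent group the spread was 1.27-fold for Socs2 and 1.52-fold for Cish, but 12.6-fold for Cux2 and 4.87-fold for Bcl6, with a median of 1.24-fold over all genes. The feedback genes were thus spread out in healthy libraries and closer together in senescent ones, which was not tested. Igf1 CPM was 1.70, 1.33 and 1.19 times Ghr CPM in the healthy and 1.98, 1.83 and 1.92 times in senescent libraries, a comparison of counts and not of levels.

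Likeness of pattern was measured as Pearson's r of log2(CPM + 0.5) over the 6 libraries, among 7501 genes of at least 10 CPM on average. The genes most like Igf1 were Slc25a10 (0.996), Atg5 (0.993) and Hdhd3 (0.991), and those most like Socs2 were Lman2l, Topors and Camk2n1 (0.996 each). Over 6 libraries in 2 groups such values largely restate the group difference and the shared libraries, and nothing about function follows from them.

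Genes around the axis were read from lists drawn up by function, with earlier results of these data known. Here rose or fell means past the edgeR threshold over all 12949 genes, of which 20.4% rose and 20.7% fell. These shares are the background for the counts of every list below, and no list was tested against them. Of 17 partners and brakes of the receptor, 16 were tested, and 5 rose, 1 fell and 10 did not pass. Their median log2 fold change was 0.29, beside 0.014 over all tested genes. Grb10, an adaptor that damps insulin and IGF1 receptor signals, had 1.28, 0.856 and 0.566 CPM in the healthy and 9.54, 12.4 and 14.6 CPM in the senescent libraries, a log2 fold change of 3.74 ± 0.30 (SE; edgeR adjusted p = 4.7e-05). Tyk2, a kinase of the JAK family, rose from 24.2, 24.5 and 25.3 to 36.3, 37.7 and 37.1 CPM (log2 fold change 0.58 ± 0.09, edgeR adjusted p = 0.0019). Sh2b1, an adaptor that enhances JAK2 activity, and Irs1, an insulin receptor substrate, rose, with log2 fold changes of 0.62 and 0.88 (edgeR adjusted p = 0.0020 and 0.0081). The rise of the phosphatase gene Ptpn1 (0.39, edgeR adjusted p = 0.026) was lost when senescent replicate 2 or 3 or healthy replicate 1 or 2 was left out. Irs2, the other main insulin receptor substrate of liver, fell from 21.4, 46.8 and 32.6 to 12.7, 12.5 and 9.81 CPM (log2 fold change -1.52 ± 0.26, edgeR adjusted p = 0.0026), so the paralogs Irs1 and Irs2 moved in opposite directions. Under total library size 11 of the list rose and 1 fell.

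Of 15 carriers, proteases and receptors of the IGFs, 9 were tested, and 1 rose, 4 fell and 4 did not pass. The median log2 fold change was 0.12 and the mean -0.24, which differ in sign. Igf2r, the receptor that clears IGF2 and carries lysosomal enzymes, rose from 28.5, 35.1 and 35.2 to 109, 128 and 139 CPM (log2 fold change 1.93 ± 0.14, edgeR adjusted p = 3.1e-05). Igfbp2, a circulating carrier that growth hormone is known to lower, fell from 461, 573 and 493 to 184, 227 and 170.4 CPM (log2 fold change -1.39 ± 0.16, edgeR adjusted p = 3.0e-04). Igfbp4, another carrier, fell from 1754, 1346 and 1452 to 662, 900.3 and 596 CPM (log2 fold change -1.08 ± 0.19, edgeR adjusted p = 0.0032). Igfbp5 and the insulin receptor gene Insr also fell, with log2 fold changes of -3.12 and -0.42 (edgeR adjusted p = 0.028 for each). Igfbp5 had 27.3, 3.50 and 2.58 CPM in the healthy and 2.23, 0.554 and 1.04 CPM in the senescent libraries, and without healthy replicate 1 its log2 fold change was -1.25. Igfbp5 lost its call with limma-voom and when senescent replicate 2 or 3 or healthy replicate 1 was left out, and Insr with total library size and when senescent replicate 1, 2 or 3 or healthy replicate 3 was left out. Igfbp3, the carrier that joins IGF1 and the acid-labile subunit in blood, was near the floor in both groups, at 0.401 ± 0.149 CPM in the healthy and 0.469 ± 0.108 CPM in the senescent libraries (SD, n = 3). Scaled by total library size, 3 of the list rose and 3 fell, and 2 fell without senescent replicate 2 or 3.

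Genes known to follow the sex-dependent pattern of growth hormone moved in both lists. No source used here gives the sex of the mice. Xist, the RNA that silences an X chromosome in female mammals, had 349.6, 378 and 454 CPM in the senescent and 212, 139.5 and 280.1 CPM in the healthy libraries (log2 fold change 0.90 ± 0.24, edgeR adjusted p = 0.017). The Y-linked genes Ddx3y, Eif2s3y, Kdm5d and Uty had 0 counts in all 6 libraries. Xist and these genes thus had the female pattern in every library of both groups, with no label to check it against. Of 18 genes known as male-biased, 15 were tested, and 8 rose, 2 fell and 5 did not pass, with a median log2 fold change of 0.83. Over the alternatives the number of them that rose ran from 6, under an adjusted p of 0.01, to 10, without healthy replicate 2. Over all tested genes 20.4% rose and 20.7% fell. Mup20, a major urinary protein, rose from 37.5, 46.5 and 34.8 to 246, 489.8 and 557 CPM (log2 fold change 3.44 ± 0.31, edgeR adjusted p = 8.6e-05). Gstp1, a glutathione transferase, rose from 340.1, 451 and 246 to 1423, 1669.7 and 1739 CPM (log2 fold change 2.22 ± 0.23, edgeR adjusted p = 2.0e-04). Serpina1e, an antitrypsin gene, and Selenbp2, a selenium-binding protein gene, fell, with log2 fold changes of -1.31 and -1.61 (edgeR adjusted p = 6.6e-04 and 0.0012).

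Of 23 genes known as female-biased, all were tested, and 1 rose, 11 fell and 11 did not pass, with a median log2 fold change of -1.23. Hao2, a peroxisomal hydroxy acid oxidase, had 25.5, 12.2 and 25.2 CPM in the healthy and 0.335, 0.525 and 0.0579 CPM in the senescent libraries (log2 fold change -6.08 ± 0.51, edgeR adjusted p = 6.1e-05), with senescent replicate 3 under the floor of 3 counts. Fmo2, a flavin monooxygenase, fell from 16.7, 25.1 and 24.5 to 4.603, 5.62 and 6.22 CPM (log2 fold change -2.01 ± 0.20, edgeR adjusted p = 1.4e-04). The gene that rose was Cyp2b10, a cytochrome P450 that drugs also induce, from 52.5, 7.59 and 10.1 to 89.2, 69.2 and 139 CPM (log2 fold change 2.08 ± 0.67, edgeR adjusted p = 0.037), and its call was lost when senescent replicate 1 or 3 or healthy replicate 2 or 3 was left out. Its log2 fold change was 3.48 without healthy replicate 1. On total library size 3 of the female-biased list rose and 9 fell. Members of the Mup, Gstp, Serpina1, Cyp2b, Cyp3a, Sult2a and Ugt2b families have near-identical copies, and their separate values are uncertain.

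**Figure D4:**
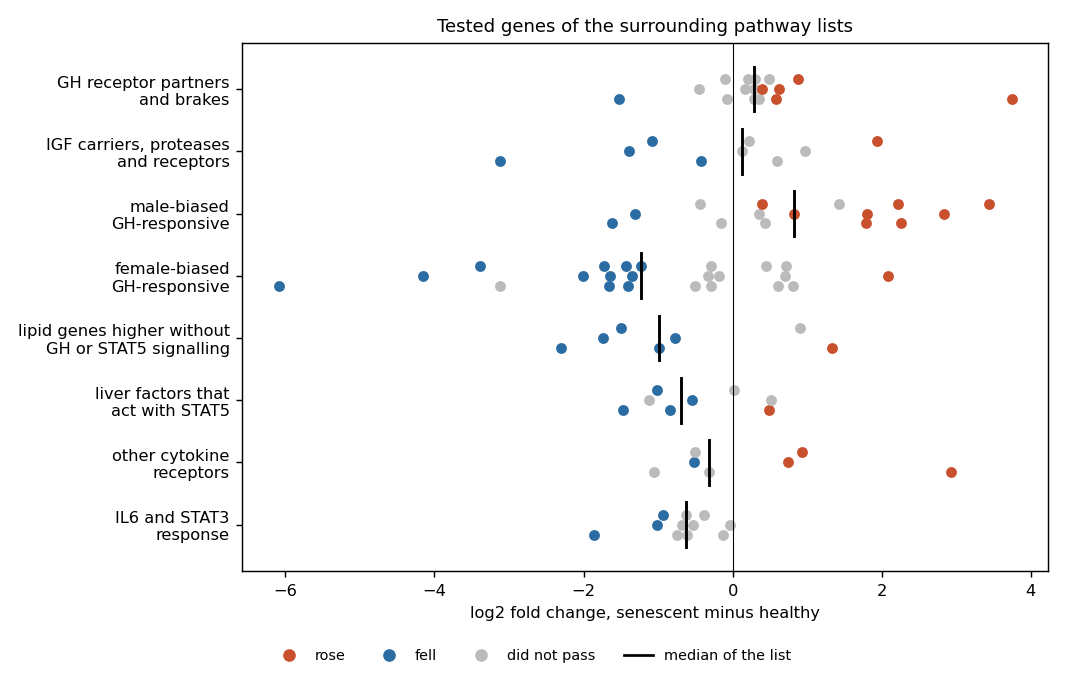
Log2 fold change (senescent minus healthy) of each tested gene in 8 lists, coloured by whether it rose, fell or did not pass the edgeR threshold, with a black bar at each list's median. The medians run from -1.23 in the female-biased list to 0.83 in the male-biased list.

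Lipid genes known to be higher in livers that lack growth hormone or STAT5 signalling were mostly lower here. That signalling was not measured, and a link between it and these values was not tested. Of 9, 7 were tested, and 5 fell, 1 rose and 1 did not pass, with a median log2 fold change of -0.99. Ppargc1b, a coactivator of lipid and mitochondrial genes, fell from 3.37, 2.65 and 2.12 to 0.530, 0.437 and 0.666 CPM (log2 fold change -2.31 ± 0.30, edgeR adjusted p = 7.0e-04). Pparg, a nuclear receptor of fat storage, fell from 8.56, 8.99 and 11.6 to 5.72, 4.46 and 4.46 CPM (log2 fold change -0.99 ± 0.18, edgeR adjusted p = 0.0034). Cd36, the fatty acid transporter, Ppargc1a, a coactivator of gluconeogenesis, and Vldlr, a lipoprotein receptor, fell, with log2 fold changes of -1.504, -1.74 and -0.77 (edgeR adjusted p = 0.0042, 0.013 and 0.013). The call of Ppargc1a was lost without senescent replicate 3, and that of Vldlr with total library size and without senescent replicate 1. Lpl, the lipoprotein lipase, rose from 5.996, 3.70 and 3.39 to 13.6, 4.69 and 14.9 CPM (log2 fold change 1.338 ± 0.42, edgeR adjusted p = 0.032). That call was lost with limma-voom and when senescent replicate 1 or 3 or healthy replicate 2 or 3 was left out.

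Of 8 liver transcription factors that act with STAT5, all were tested, and 1 rose, 4 fell and 3 did not pass, with a median log2 fold change of -0.69. Cebpa, a factor of hepatocyte differentiation, fell from 429.6, 418 and 347 to 156, 141 and 134 CPM (log2 fold change -1.47 ± 0.13, edgeR adjusted p = 1.0e-04). Nr3c1, the glucocorticoid receptor and a partner of STAT5 at growth genes, rose from 70.8, 59.4 and 71.4 to 93.3, 91.7 and 98.8 CPM (log2 fold change 0.49 ± 0.11, edgeR adjusted p = 0.0098). The pioneer factor genes Foxa1 and Foxa2 fell, with log2 fold changes of -1.02 and -0.85 (edgeR adjusted p = 0.016 and 0.027), and both lost their call with total library size and without senescent replicate 3, as Foxa2 did without senescent replicate 1 or healthy replicate 2. Hnf4a, a master factor of the hepatocyte, had 795 ± 169 CPM in the healthy and 805 ± 107 CPM in the senescent libraries (SD, n = 3). Under total library size 2 of the list rose and 1 fell, and without senescent replicate 3 only Cebpa fell.

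Among 9 other cytokine and growth factor receptors 7 were tested, and 3 rose, 1 fell and 3 did not pass. The median log2 fold change was -0.32 and the mean 0.31, which differ in sign. Osmr, the oncostatin M receptor, rose from 0.808, 1.01 and 2.30 to 9.71, 10.6 and 11.1 CPM (log2 fold change 2.92 ± 0.34, edgeR adjusted p = 3.6e-04). Il6ra and Egfr rose and Lifr, the leukaemia inhibitory factor receptor, fell, with log2 fold changes of 0.74, 0.93 and -0.52 (edgeR adjusted p = 0.013, 0.048 and 0.018). Each of these 3 calls was lost without senescent replicate 3, Il6ra and Egfr also without healthy replicate 2, Egfr and Lifr also without senescent replicate 2, Egfr without healthy replicate 1, and Lifr with total library size. Egfr had a log2 fold change of 1.41 without healthy replicate 3. Prlr, the prolactin receptor and the closest relative of the growth hormone receptor, had 331, 284 and 311 CPM in the healthy and 247, 250.2 and 247 CPM in the senescent libraries (log2 fold change -0.32 ± 0.11, edgeR adjusted p = 0.056).

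STAT3, which interleukin 6 activates, reads a related DNA motif, and its acute phase targets were listed for comparison. Of 11, all were tested, and 0 rose, 3 fell and 8 did not pass, with a median log2 fold change of -0.63. Saa3, a serum amyloid gene, fell by 1.86 ± 0.40 on the log2 scale (edgeR adjusted p = 0.0071). Pim1, a kinase that both STAT3 and STAT5 induce, had 11.6, 17.8 and 11.9 CPM in the healthy and 9.54, 4.93 and 5.88 CPM in the senescent libraries, and its fall of 1.02 (edgeR adjusted p = 0.018) was lost with total library size and when senescent replicate 2 or 3 or healthy replicate 2 was left out. Hp, haptoglobin, fell by 0.94 (edgeR adjusted p = 0.048) and lost that call in 9 of its 14 alternatives. Socs3, the feedback inhibitor of STAT3, had 5.25, 24.7 and 15.1 CPM in the healthy and 38.6, 14.4 and 9.93 CPM in the senescent libraries, which overlapped. Only 1 of the list fell with total library size, without senescent replicate 2 or 3, or without healthy replicate 2, and 6 fell without healthy replicate 1.

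Markers of other liver cells were read beside these groups, again with 20.4% of all tested genes that rose and 20.7% that fell as background. Of 12 macrophage markers 2 rose, Vsig4 and Cd68. Each of the 12 had a higher mean in the senescent group, with a median log2 fold change of 0.97. Clec4f of Kupffer cells was the marker with the highest mean CPM over all 6 libraries, close to Cd5l. It had 49.5, 58.7 and 20.8 CPM in the healthy and 76.8, 48.8 and 98.5 CPM in the senescent libraries. Of 9 stellate cell markers 4 rose, Reln, Rgs5, Dcn and Col3a1, of which Dcn had the highest mean CPM, and the list summed to 13.6, 18.8 and 10.96 CPM in the healthy and 28.7, 30.5 and 41.7 CPM in the senescent libraries. Of 6 cholangiocyte markers 4 were tested and 2 rose, Krt19 and Spp1, with sums of 4.70 to 8.05 CPM in the healthy and 11.4 to 16.3 CPM in the senescent libraries. Of 8 endothelial markers Cdh5 rose and Ehd3 fell, with sums of 98.2 to 124 CPM in the healthy and 101 to 131 CPM in the senescent group. Stab2, the highest of them in mean CPM over all 6 libraries by a small margin, had 22.8 ± 5.31 and 24.1 ± 5.32 CPM (SD, n = 3). The 6 lymphocyte markers summed to at most 0.926 CPM in any library, with the highest mean CPM in Cd79a, and none was tested. No marker of these lists was at 0 in all 6 libraries. Grb10, Osmr, Lpl, Igfbp4 and Igfbp5 are known in such cells too, and the part of other cells in their values, as in those of the axis genes, was not tested.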

How the data were processed

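Polyadenylated RNA of isolated hepatocytes was read in 3 senescent and 3 healthy libraries, grouped by the titles. The deposited values are whole numbers per gene in a single set, and by its name they were taken as read counts with no normalization. Tools named, per the submitters' processing notes, are STAR 2.7.1a, featureCounts, cutadapt 1.16, DESeq2 1.34.0, FastQC and MultiQC 1.3, and the build GRCm38. No source used here gives the annotation release, strand setting or filters; overlapping, antisense and near-identical genes are therefore uncertain. Of the 6 columns 5 bear a sample's code, and the remaining column, taken as healthy replicate 2, differs from its code by a single letter. Per the labels' protocols, the kit is strand-specific.

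Symbols were found for 31976 of 32061 IDs (99.7%). Coordinates and exonic lengths are of GENCODE M21 on GRCm38, and promoter windows of RefSeq on GRCm38.p6. An exonic length is that of all annotated exons of a gene joined, not of a single transcript. Counts were fitted with edgeR 4.0.16 (R 4.3.3) by the two-sided quasi-likelihood F test with TMM scaling and no covariate, on genes kept by filterByExpr at a minimum count of 10 and a minimum total of 15. The fit was tried on simulated data. Benjamini-Hochberg adjustment ran over 12949 genes, with a threshold of 0.05. The SE is the size of the log2 fold change over the square root of F. CPM are counts over the TMM-scaled library size. An exact permutation test of 3 against 3 cannot go below p = 0.1 and was not used. The floor of 3 counts covers counting error only.

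The 10 axis genes and all lists were chosen with earlier results of these data known. Named genes were the 10 axis genes, from each list the 2 risen and 2 fallen genes of smallest p, the marker of each other cell type with the highest mean CPM, the X-inactivation and Y-linked genes, and the 3 genes most like Igf1 and Socs2. A gene of the transcription factor list is counted there but is not reported here by name. Others were named after their values were seen: those that complete a count of 5 or fewer, and Mdm2, Igfbp3, Hnf4a, Prlr and Socs3. Alternatives were DESeq2 1.42.0, limma-voom (limma 3.58.1), RLE size factors, total library size, low counts kept, a mean of at least 1 CPM, an adjusted p under 0.01, removal of the 50 most abundant genes, the replicate number as a block and each library left out.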

Additional observations from a re-analysis of the deposited data

How the results depend on the processing

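The falls of Ghr, Socs2, Igfals and Cux2 kept their direction and their call in all 15 alternatives, which describes the fit and does not support the choice of these genes. The alternative with an adjusted p under 0.01 kept the main fit, so only a call, not a direction, could change there. Among the other axis genes the sign turned with total library size for Stat5a, Stat5b and Igf1, and with a library left out for Cish and Bcl6. Total library size gave 4861 genes that rose and 1285 that fell, against 2644 and 2680 with TMM factors, and 1 axis gene, Jak2, rose. The same scaling gave log2 fold changes of 0.89 for Tyk2, 0.70 for Ptpn1, 0.80 for Nr3c1, -0.11 for Insr, -0.46 for Vldlr, -0.54 for Foxa2 and -0.21 for Lifr. Under an adjusted p of 0.01, 1570 genes rose and 1498 fell. With each library left out in turn, 1836 to 2691 genes rose and 1489 to 2789 fell, with the fewest falls, 1489, without senescent replicate 3. The single rise among female-biased genes became 2 with DESeq2, limma-voom, no filter on low counts or a filter at a mean of 1 CPM, 3 with total library size or the replicate block, 0 under an adjusted p of 0.01, and 0 to 3 with a library left out (0 without senescent replicate 3 or healthy replicate 2, 3 without healthy replicate 1). Deviations of same-numbered libraries correlated at 0.25, -0.20 and 0.025, so the numbers were not shown to pair the samples, and with the replicate block 2576 genes rose and 2625 fell. Over single genes of the axis and lists 1444 alternative values kept their side of the threshold, 92 lost a call, 47 gained one and 0 reversed. The cause of these shifts was not tested. With 3 libraries a group, genes that vary between libraries, such as Cish and Bcl6, allow a wide range of differences, and genes near 1 CPM rest on few counts.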
